A study of Homo sapiens with 4 samples.

Results

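The genes described here build, fold, sort and clear proteins in the endoplasmic reticulum (ER) of BJ-TE cells. They are 44 named genes of ER folding, ER-associated degradation and the early secretory pathway, and each was read from the probe sets that the array's annotation assigns to that gene and to no other. Of the 44, 38 had such a probe set, 70 probe sets in all, among 11963 genes measured this way. All 38 also lay above the brightness filter, which asks that the gene's brightest probe set reach the median of all probe sets (an intensity of about 111), and so all 38 were tested among 6759 genes. The other 6 were not analysed here: PDIA5 and TXNDC5 had only probe sets shared with another gene, and DNAJB11, SYVN1, SEC61G and KDELR2 had none under their symbol.

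BJ-TE is a cell line that goes back to BJ fibroblasts of human foreskin. Cultures carried a control short hairpin RNA (shRNA), labelled ns, or an shRNA against the transcription factor p73, and each was collected when 40% or 100% confluent. This gives 4 groups of 1 array: ns at 40%, p73 shRNA at 40%, ns at 100% and p73 shRNA at 100%. No group has a replicate, and the labels do not say whether cultures were independent or how the hairpins were delivered, and p-values can speak only of the scatter among these 4 arrays. All 14 fibroblast markers examined, COL1A1, VIM and THY1 among them, lay above the filter, and none of 8 epithelial, 6 endothelial and 5 blood cell markers did. Of 4 measured markers of plasma and other professional secretory cells, IGHG1 did and INS, JCHAIN and MZB1 did not. The only TP73 probe set had intensities of 1.65 to 2.09, between the 2.18th and 3.84th percentile of its arrays, and gives no check of the knockdown. Median intensity was 105 to 106 at 40% and 120 to 122 at 100% confluence.

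Secreted and membrane proteins enter the ER through the Sec61 channel, fold there with the help of chaperones and disulfide-forming enzymes, and leave for the Golgi in vesicles coated with COPII. Proteins that fail to fold are pulled back to the cytosol and degraded, while resident chaperones that escape are returned by KDEL receptors. When unfolded proteins accumulate, sensors in the ER membrane (the kinase PERK, encoded by EIF2AK3, the transcription factor ATF6, and IRE1, which splices the XBP1 mRNA) raise chaperone genes and restrain translation, a programme known as the unfolded protein response. Fibroblasts secrete large amounts of collagen, and much of this machinery serves that load. An array of this kind reads mRNA levels and sees neither the splicing of XBP1 nor the cleavage of ATF6.

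In confluent cells most measured members of ER to Golgi carriers and retrieval had higher mRNA levels. Several members of ER entry and of the luminal chaperones had lower ones. Of the 6 measured members of ER to Golgi carriers and retrieval, 5 rose at 100% confluence (SEC24D, LMAN1, KDELR3, SEC23A and SEC31A). Of 6 genes of translocation into the ER, 3 fell (SEC61A1, SSR3 and SSR2). Of 8 luminal chaperones and partners, 3 fell (SDF2L1, MANF and CALR). Of 6 disulfide enzymes, which also serve folding, 1 rose (PDIA4) and none fell. Over all tested genes 20.4% rose and 16.1% fell. Without limma's intensity trend, explained below, the calls of SEC23A, SEC31A, SSR3, SSR2, MANF, CALR and PDIA4 were lost. The ER stress kinase EIF2AK3 and the transcription factor CREB3L2 rose by an average of 1.62-fold and 1.44-fold, and CREB3L1, the close relative of CREB3L2, fell by an average of 1.53-fold. On the brightest probe set of each gene no member reached an average of 2-fold: the largest average changes were those of SDF2L1, 1.94-fold lower, and SEC24D, 1.81-fold higher. RNA of whole cultures does not tell a lower level in every cell from fewer cells with the transcript, and with this design any difference in handling between the stages cannot be told apart from confluence. The ratio of 3' over 5' intensity of control probe sets is a sign of RNA integrity. For beta-actin it was 1.24 (ns) and 1.09 (p73 shRNA) at 40% and 1.47 and 1.38 at 100%. For GAPDH it was 0.93 and 0.98 at 40% and 1.02 and 1.02 at 100%. The part of RNA integrity in the results was not tested.

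The test behind these calls was limma with an additive model of confluence and hairpin over all 4 arrays, with p-values adjusted by Benjamini-Hochberg over the 6759 genes and a threshold of 0.05. All changes are on the scale of log2(intensity + 11.6), which understates those of dim genes. Among the members 9 of 38 rose (23.7%) and 7 fell (18.4%), and over all tested genes 20.4% rose and 16.1% fell. The shares of members called were thus close to the background. At least 1.5-fold with both hairpins were 1 member higher, SEC24D, and 2 lower, SDF2L1 and CREB3L1, where all genes gave 9.96% higher and 5.68% lower. The median log2 ratio of the members was -0.048 with ns shRNA and 0.035 with p73 shRNA, beside 0.0093 and 0.019 for all genes. Without limma's intensity trend, which here takes a gene's error wholly from its brightness, 5 members rose and 3 fell: SEC24D, LMAN1, KDELR3, EIF2AK3 and CREB3L2, and SDF2L1, SEC61A1 and CREB3L1.

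**Figure D1:**
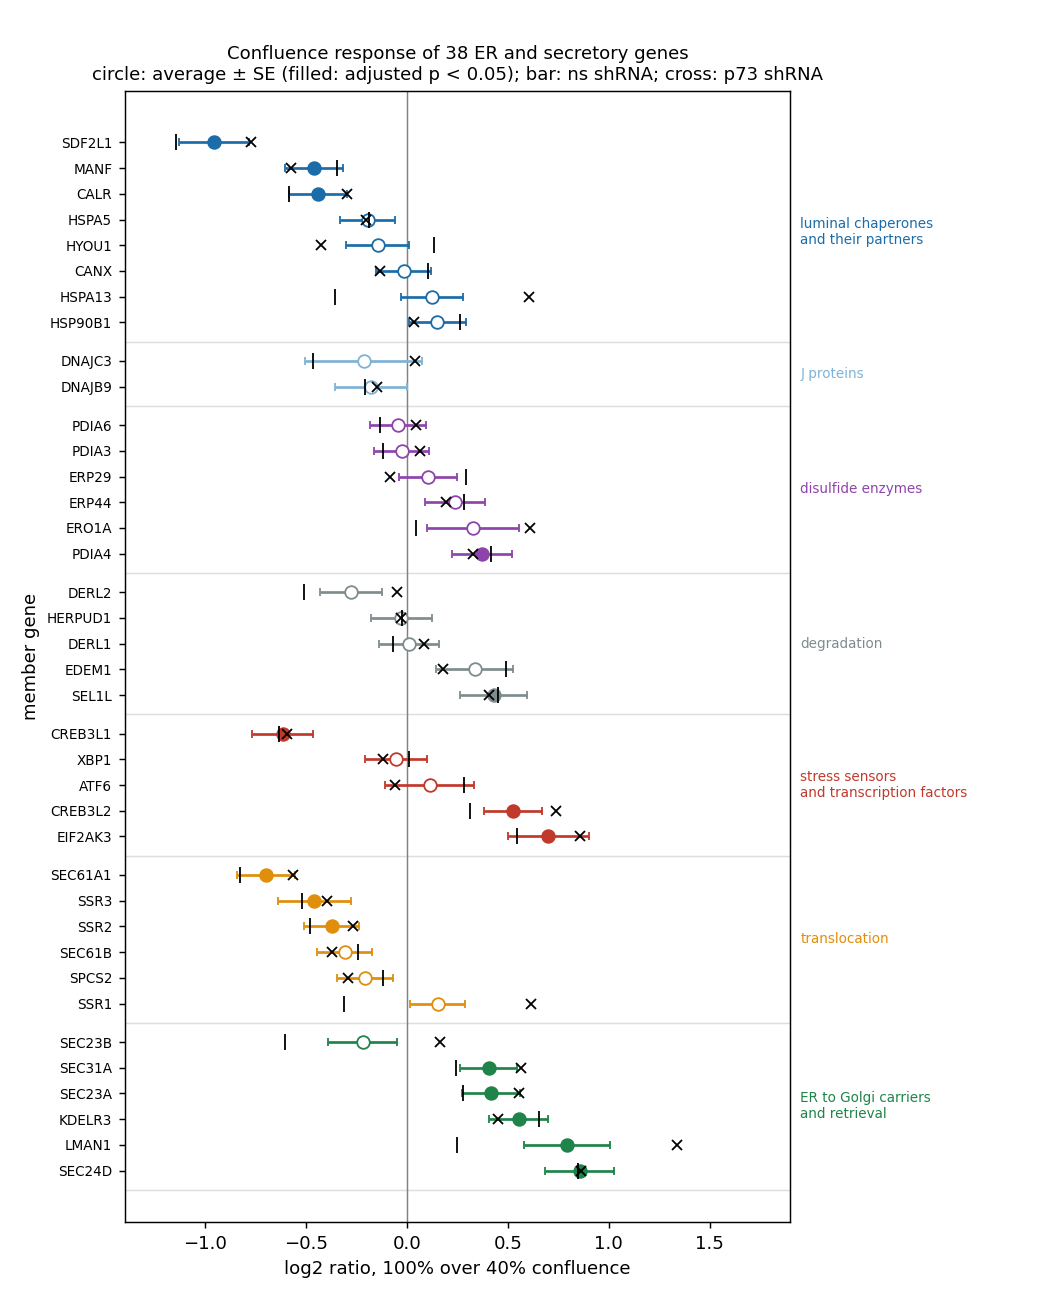
Log2 ratio of 100% over 40% confluence for the 38 tested members, grouped by role. Circles are the average of both hairpins with its standard error from limma (filled where the adjusted p is below 0.05), bars the ratio with ns shRNA and crosses the ratio with p73 shRNA, each from 1 pair of arrays. The 5 filled circles of the carrier group lie to the right of 0, and the filled circles of chaperones and translocation lie to the left.

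The chaperones include the best known targets of the unfolded protein response, so the promoters were searched for the elements through which ATF6 and XBP1 are known to act. RefSeq promoter sequences (250 bases before to 50 after the annotated start, build GRCh38.p14) matched 40 of the 44 members, 35 of them among the 38 tested, with 55 promoters in all. The ER stress element, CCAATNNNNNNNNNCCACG on either strand, was present in 27 of 35116 promoters (0.0769%) and in 8 of the 55 promoters of members, belonging to 6 genes. These matches are shown with 15 bases on either side, and capitals mark the motif; in CALR and HSP90B1 it lies on the opposite strand and so reads as its reverse complement.
HSPA5, chr9:125241376-125241424, minus strand: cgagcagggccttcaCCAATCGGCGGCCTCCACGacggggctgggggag
HSP90B1, chr12:103930306-103930354, plus strand: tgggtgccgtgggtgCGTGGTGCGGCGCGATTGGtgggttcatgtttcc
CANX, chr5:179698763-179698811, plus strand: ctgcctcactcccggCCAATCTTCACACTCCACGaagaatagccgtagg
PDIA6, chr2:10812838-10812886, minus strand: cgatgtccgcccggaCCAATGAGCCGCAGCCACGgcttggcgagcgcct
CALR, chr19:12938369-12938417, plus strand: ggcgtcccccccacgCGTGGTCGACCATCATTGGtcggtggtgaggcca
XBP1, chr22:28800588-28800636, minus strand: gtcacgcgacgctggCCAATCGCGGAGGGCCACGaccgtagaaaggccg
The shorter ERSE-II element, ATTGGNCCACG on either strand, was found in 19 of 35116 promoters (0.0541%) and in those of 3 members.
SDF2L1, chr22:21642099-21642139, plus strand: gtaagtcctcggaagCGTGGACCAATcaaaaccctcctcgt
HYOU1, chr11:119057259-119057299, minus strand: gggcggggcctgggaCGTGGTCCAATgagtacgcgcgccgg
HERPUD1, chr16:56932010-56932050, plus strand: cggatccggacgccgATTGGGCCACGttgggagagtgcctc
On the brightest probe set of each of these 9 genes, CALR and SDF2L1 fell at confluence, none rose and 7 did not pass the test (limma). Over all tested genes 20.4% rose and 16.1% fell. Among the 8 chaperones and partners none rose, and at an unadjusted p below 0.05 (limma) none was higher and 3 were lower. Of all 6759 tested genes, 1651 were higher and 1367 lower at that unadjusted threshold. The average log2 changes ran from -0.44 to 0.15 over the 6 genes with the first element and from -0.96 to -0.030 over the 3 with the second. These values are for the brightest probe sets, and a second HSP90B1 probe set averaged 0.54. A match is a description of the letters in this window and shows no binding.

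HSPA5, the Hsp70 chaperone BiP and the central folding factor of the ER lumen, had intensities of 9769 with ns and 9399 with p73 shRNA at 40% confluence, and of 8578 and 8155 at 100%. Both confluent arrays were lower than both others, by an average log2 of -0.20 (SE 0.14, limma adjusted p 0.261), which did not pass. After quantile normalization the HSPA5 average was -0.04 (limma adjusted p 0.797). HSP90B1, the Hsp90 of the ER, averaged 0.15 (limma adjusted p 0.434) on its brightest probe set. A second HSP90B1 probe set above the filter had ratios of -0.05 with ns and 1.14 with p73 shRNA. That probe set averaged 0.54 (limma adjusted p 0.0358 when each probe set was tested as its own feature). The mean of the HSP90B1 probe sets gave 0.35 (limma adjusted p 0.0812). CANX, the membrane-bound lectin chaperone calnexin, averaged -0.02 and took the opposite sign after quantile normalization. HYOU1, a large Hsp70 relative that exchanges the nucleotide of BiP, was higher by 0.13 with ns shRNA and lower by -0.43 with p73 shRNA. HSPA13, a small Hsp70-like protein of microsomes, also went both ways, by -0.36 and 0.60.

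SDF2L1, which works in a complex with the J protein DNAJB11, had the largest fall. Its intensity was 1026 (ns) and 997 (p73 shRNA) at 40% confluence, against 458 and 578 at 100%. The confluent arrays were the lower pair with both hairpins, with log2 ratios of -1.14 and -0.77 and an average of -0.96 (SE 0.17, limma adjusted p 4.99e-07; 0.000793 without the trend). This call held under all 9 alternatives tried.

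MANF, a secreted and ER-retained factor induced by ER stress, had intensities of 2824 and 3477 at 40% and of 2213 and 2327 at 100%. It fell by an average of -0.46 (SE 0.14, limma adjusted p 0.00587), and without the trend the call was lost (0.0561). CALR, the soluble lectin chaperone calreticulin, read 3941 and 3699 at 40% and 2620 and 3006 at 100% on its brightest probe set, an average fall of -0.44 (SE 0.14, limma adjusted p 0.00771). Its other probe sets above the filter did not share that fall: one averaged 0.06 and the other 0.25. The CALR call was lost with the mean of its probe sets, without the brightness filter and without the trend (limma adjusted p 0.0691). Over the 8 genes of this group the median log2 ratio was -0.27 with ns and -0.25 with p73 shRNA.

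Both measured J proteins, which hand unfolded clients to BiP, were lower on average and did not pass. DNAJB9 averaged -0.18 (limma adjusted p 0.459). DNAJC3, also known as an inhibitor of PERK, had intensities of 114 to 162, close to the filter, and averaged -0.22 with an SE of 0.29.

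Of the 6 disulfide enzymes 1 rose, PDIA4, a protein disulfide isomerase. Its intensity was 1630 and 1693 at 40% and 2180 and 2123 at 100%, an average of 0.37 (SE 0.15, limma adjusted p 0.0385; 0.118 without the trend), and a second probe set averaged 0.44. The confluent arrays were thus the higher pair for PDIA4, with little difference between hairpins. PDIA3, the isomerase that works with calnexin and calreticulin, averaged -0.03, and PDIA6 averaged -0.05; both changed sign after quantile normalization. ERO1A, the oxidase that recharges these enzymes and a gene known to respond to low oxygen, had ratios of 0.04 with ns and 0.61 with p73 shRNA (average 0.33, limma adjusted p 0.263). ERP44, which retains ERO1 enzymes in the early secretory pathway, averaged 0.24 and ERP29, a disulfide isomerase homologue, 0.10. The median of the 6 genes was 0.16 with ns and 0.13 with p73 shRNA.

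Of 5 measured genes of ER-associated degradation 1 rose, SEL1L, the scaffold of the ubiquitin ligase complex that clears misfolded proteins. It read 759 and 778 at 40% and 1041 and 1035 at 100%, an average of 0.43 (SE 0.17, limma adjusted p 0.0313), but it missed the threshold once arrays were quantile normalized (0.0501) or the trend was left out (0.0726). The mean of its probe sets gave 0.15 (limma adjusted p 0.648), and the call was lost under 5 of 9 alternatives. Its confluent arrays were the higher pair, and its other probe sets above the filter averaged 0.02 and 0.48. The mannosidase-like lectin EDEM1 averaged 0.33 (limma adjusted p 0.162), HERPUD1, a stress-induced partner of the ligase, -0.03, and the channel proteins DERL1 and DERL2 averaged 0.01 and -0.28. None of these passed, and the median of the 5 was -0.028 with ns and 0.085 with p73 shRNA.

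The regulators of the pathway gave the most varied picture. EIF2AK3 (PERK), which phosphorylates the initiation factor eIF2alpha, had intensities of 390 (ns) and 246 (p73 shRNA) at 40% and of 574 and 454 at 100%. It rose at confluence, with log2 ratios of 0.55 for ns and 0.85 for p73 shRNA (average 0.70 ± 0.20 SE, limma adjusted p 0.00249; 0.00702 without the trend). At each stage the p73 shRNA array was the lower one.

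CREB3L1 (OASIS) and CREB3L2 (BBF2H7) are transcription factors held in the ER membrane and released by cleavage, known in connective tissue for their roles in secretion and collagen production. CREB3L1 read 2082 and 2126 at 40% and 1336 and 1401 at 100%, with ratios of -0.64 for ns and -0.60 for p73 shRNA (average -0.62, SE 0.15, limma adjusted p 0.000334; 0.0133 without the trend). CREB3L2 read 2482 and 1705 at 40% and 3083 and 2847 at 100%, with ratios of 0.31 and 0.74. Its average was 0.52 ± 0.15 (SE), with a limma adjusted p of 0.00178, or of 0.0382 without the trend. The pair therefore went in opposite directions with either hairpin, and the arrays of the stages did not overlap for either gene. A second, dimmer probe set of CREB3L1 was also lower, by -0.59 and -0.14.

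XBP1 averaged -0.06 at confluence (limma adjusted p 0.814) with intensities of 1202 to 1517. ATF6 had intensities of 220 and 344 at 40% and 269 and 330 at 100%, an average of 0.11 (limma adjusted p 0.732). A second ATF6 probe set above the filter was higher at confluence, with log2 ratios of 0.69 and 0.56, so the probe sets of ATF6 do not give 1 answer.

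At the entrance of the ER, SEC61A1, the pore of the translocation channel, had intensities of 4093 and 3688 at 40% and of 2296 and 2486 at 100%. Both confluent arrays lay below both arrays at 40%, with ratios of -0.83 (ns) and -0.57 (p73 shRNA) and an average of -0.70 (SE 0.14, limma adjusted p 1.12e-05; 0.00682 without the trend), a call held under all 9 alternatives. SEC61B, a small subunit of the channel, read 5868 and 7056 at 40% and 4946 and 5440 at 100% (average -0.31, SE 0.14, limma adjusted p 0.0622) and did not pass, although its confluent arrays were also the lower pair.

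The translocon-associated protein complex, which helps chosen chains into the channel, was represented by 3 subunits. SSR2 read 7638 and 6645 at 40% and 5471 and 5519 at 100% (average -0.37, limma adjusted p 0.0216). SSR3 read 759 and 600 at 40% and 525 and 453 at 100% (average -0.46, limma adjusted p 0.035). Both fell, and both calls were lost without the trend, without the brightness filter or without the hairpin in the model. The SSR2 call was also lost after quantile normalization (average -0.30, limma adjusted p 0.0522). SSR1 averaged 0.15 on its brightest probe set and -0.19 to -0.32 on its 3 others. SPCS2, a subunit of the signal peptidase, averaged -0.21 (limma adjusted p 0.244). The median ratio of the 6 translocation genes was -0.40 with ns and -0.33 with p73 shRNA. At an unadjusted p below 0.05 (limma) none of the 6 was higher and 4 were lower. Of all 6759 tested genes, 1651 were higher and 1367 lower by that measure.

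At the exit of the ER, SEC24D, a cargo-binding subunit of the COPII coat needed for collagen export, rose most. Its intensity was 558 (ns) and 546 (p73 shRNA) at 40% and 1013 and 1003 at 100%. The hairpins differed little at either stage, and the ratios of 0.85 and 0.86 gave an average of 0.86 (SE 0.17, limma adjusted p 8.2e-06; 0.00144 without the trend). Its other 2 probe sets lay below the brightness filter, and averaging them in ended the call.

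SEC23A, which pairs with SEC24 proteins in the inner coat, read 2567 and 2024 at 40% and 3116 and 2980 at 100% (average 0.42, SE 0.14, limma adjusted p 0.0145). SEC31A, of the outer coat, read 4029 and 3222 at 40% and 4772 and 4771 at 100% (average 0.40, SE 0.14, limma adjusted p 0.0144). Second probe sets of both were higher too, by averages of 0.41 and 0.43, and both calls were lost without the trend (0.0851 and 0.0964). SEC23B, the paralogue of SEC23A, did not pass (average -0.22, limma adjusted p 0.315): it was lower by -0.60 with ns and higher by 0.16 with p73 shRNA.

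KDELR3, a KDEL receptor that returns escaped chaperones to the ER, read 1994 and 2031 at 40% and 3146 and 2777 at 100%. It rose by an average of 0.55 (SE 0.15, limma adjusted p 0.000954; 0.025 without the trend), a call held under all 9 alternatives. Its other probe sets above the filter averaged 1.07 and 0.04. LMAN1, the lectin ERGIC-53 that carries glycoproteins to the Golgi, read 376 and 158 at 40% and 448 and 416 at 100%. The p73 shRNA array at 40% stood below the other 3, so the ratio was 0.25 with ns and 1.34 with p73 shRNA (average 0.79, SE 0.21, limma adjusted p 0.00119; 0.0117 without the trend). This SE follows from brightness and does not widen where the ratios differ, and a second LMAN1 probe set averaged -0.0012. Averaging its probe sets, or leaving out the brightness filter, ended the LMAN1 call. The 6 genes of this group had medians of 0.26 with ns and 0.56 with p73 shRNA.

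KDELR3 and SEC23A share a sequence feature with SSR3 and HYOU1, the core TGACGTGG of the unfolded protein response element, present on either strand in 256 of 35116 promoters (0.729%) and in 5 of the 55 promoters of members. TXNDC5 is the fifth gene. The matches that lie wholly before the start in a gene called at confluence are shown because these genes went in opposite directions; both lie on the opposite strand.
KDELR3, chr22:38468035-38468072, plus strand: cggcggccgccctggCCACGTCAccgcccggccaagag
SSR3, chr3:156554144-156554181, minus strand: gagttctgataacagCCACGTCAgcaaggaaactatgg
Of the 4 tested genes with this core, KDELR3 and SEC23A rose, SSR3 fell and HYOU1 did not pass. The HYOU1 promoter holds a second ERSE-II match, farther from the start than the one shown, and the core overlaps that second match, the only overlap between motifs in these promoters.

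**Figure D2:**
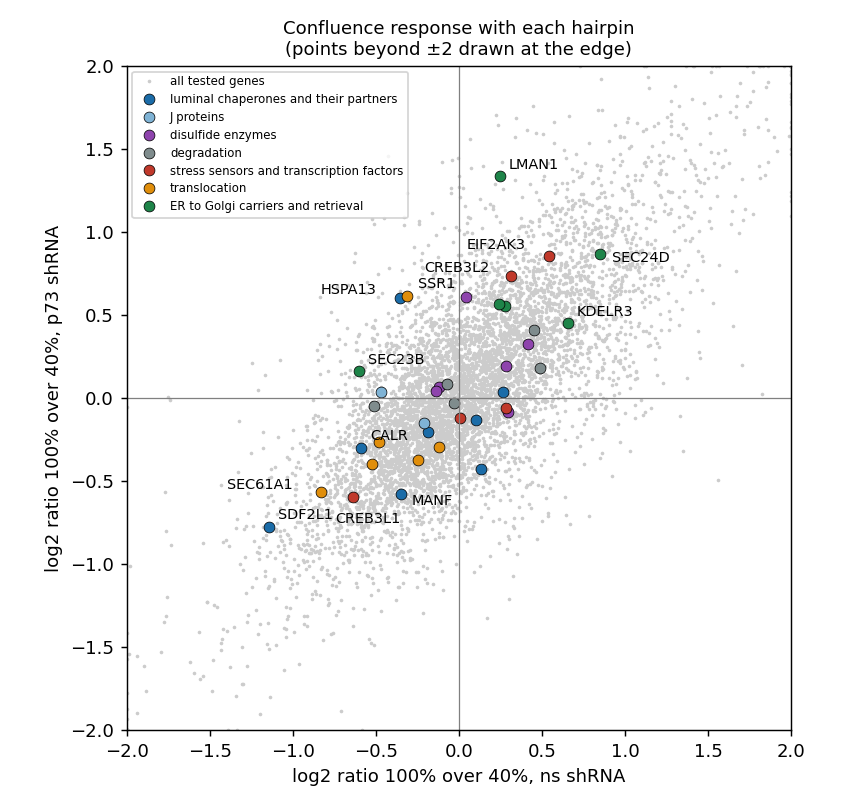
Log2 ratio of 100% over 40% confluence with ns shRNA (x) against that with p73 shRNA (y), 1 pair of arrays each, for all 6759 tested genes (grey) and the 38 members coloured by role. SDF2L1 (-1.14 and -0.77) and SEC24D (0.85 and 0.86) lie farthest along the diagonal among members, whereas HSPA13, SSR1 and SEC23B are lower with ns and higher with p73 shRNA.

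Few of these genes passed the test for the p73 hairpin. Averaged over both stages, 2 of 38 members fell with p73 shRNA, HSPA13 and SSR1, and none rose, beside 1.58% fallen and 1.14% risen among all tested genes (limma). At an unadjusted p below 0.05 (limma), 1 member was higher and 5 were lower, beside 410 higher and 512 lower of all 6759 tested genes. None passed 1.5-fold at both stages in either direction, where all genes gave 0.473% higher and 0.755% lower. The median log2 ratio of the members was -0.069 at 40% and -0.026 at 100% confluence, beside -0.0011 at each stage for all genes.

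HSPA13 had intensities of 2308 with ns and 1067 with p73 shRNA at 40%, and of 1800 and 1627 at 100%. The difference thus lay almost wholly at 40%, with ratios of -1.11 and -0.14 (average -0.63, SE 0.15, limma adjusted p 0.00405). A second HSPA13 probe set, at 1022, 648, 814 and 776 in the same order of arrays, gave -0.65 and -0.07. SSR1, a subunit of the translocon-associated complex, read 10016 and 5283 at 40% and 8070 and 8101 at 100% (ratios -0.92 and 0.01, average -0.46, SE 0.14, limma adjusted p 0.0352). Its other 3 probe sets had averages of -0.12, -0.10 and 0.03. The SEs of HSPA13 and SSR1 follow from brightness and do not widen where the ratios of the stages differ. Neither call held once arrays were quantile normalized (limma adjusted p 0.0594 and 0.0595, with averages of -0.60 and -0.51 close to those given) or the trend was left out (0.217 and 0.397).

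LMAN1, with ratios of -1.19 and -0.10, averaged -0.65 (SE 0.21, limma adjusted p 0.0682) and did not pass. EIF2AK3 was lower at both stages, by -0.64 and -0.33 (average -0.49, limma adjusted p 0.195), and CREB3L2 by -0.54 and -0.11 (average -0.33, limma adjusted p 0.26). The largest positive averages were those of ATF6 (0.45, limma adjusted p 0.339), SEC61B (0.20, limma adjusted p 0.573) and MANF (0.19, limma adjusted p 0.645). ATF6 was higher with p73 shRNA at both stages on its brightest probe set, by 0.62 and 0.28, and lower on its other one, by -0.47 and -0.60. Among stress-induced genes, HSPA5 and HSP90B1 averaged -0.06 and -0.05 and the degradation factor HERPUD1 0.10 (limma adjusted p 0.863 to 0.932). SDF2L1 averaged 0.14 (limma adjusted p 0.812) and XBP1 -0.27 (limma adjusted p 0.461). CRELD2, from the wider list of ER genes below, averaged 0.41 (limma adjusted p 0.0975), and none of these passed.

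**Figure D3:**
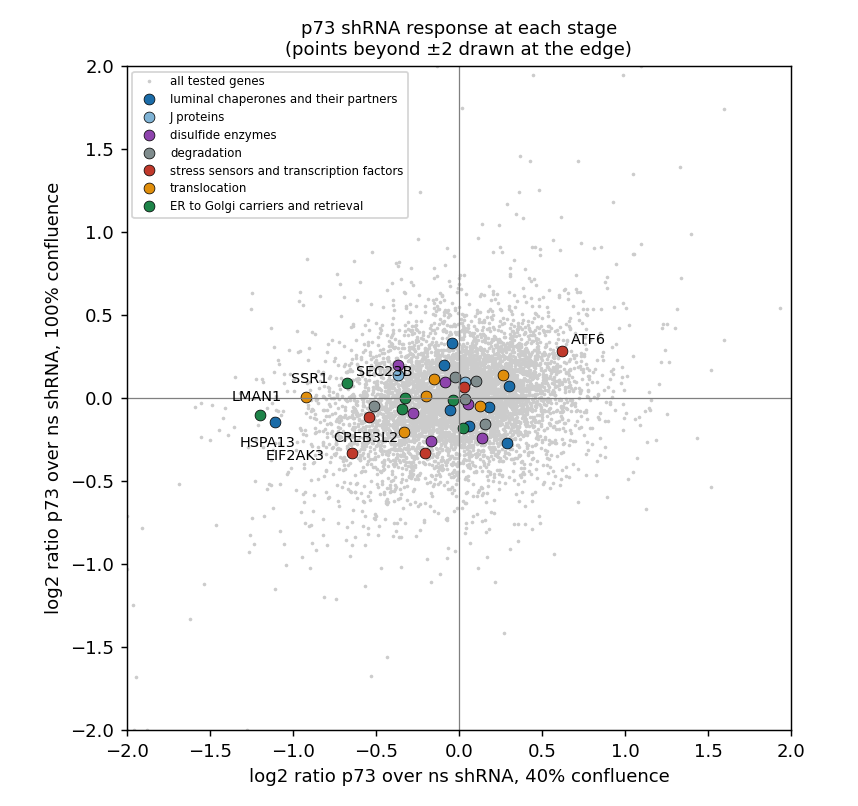
Log2 ratio of p73 over ns shRNA at 40% confluence (x) against that at 100% (y), 1 pair of arrays each, for all 6759 tested genes (grey) and the 38 members coloured by role. LMAN1 (-1.19 and -0.10), HSPA13 (-1.11 and -0.14) and SSR1 (-0.92 and 0.01) are low at 40% and near 0 at 100%.

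The lowest values of HSPA13, SSR1 and LMAN1 all came from the p73 shRNA array at 40% confluence. That array was the lowest of the 4 for 12 of 38 members (31.6%) and for 30.8% of all tested genes, nearly the same share. It was the highest for 9 members (23.7%, all genes 29.1%). The highest was ns at 40% for 13 (34.2%, all genes 23.4%), ns at 100% for 14 (36.8%, 26.9%) and p73 shRNA at 100% for 2 (5.26%, 20.6%). The upper end of the p73 shRNA array at 40% was also the brightest, with a 99th percentile of intensity of 13157. It was 11420 for ns at 40%, and 10196 for ns and 10869 for p73 shRNA at 100%, so both confluent arrays were the lower pair. Quantile normalization, which makes the intensity distributions of the arrays equal, left the p73 shRNA averages at -0.60 for HSPA13, -0.51 for SSR1 and -0.61 for LMAN1, against -0.63, -0.46 and -0.65 as deposited. With 1 array a group, a trait of this array cannot be told apart from the hairpin at 40% confluence, and neither was tested.

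Probe sets of 1 gene set a limit on these readings. Of the 18 members with over 1 probe set above the filter, 7 had probe sets that differed in the sign of the confluence average (CALR, CANX, HSPA13, LMAN1, PDIA6, SEC23B and SSR1). For the p73 shRNA average 11 did so (ATF6, CALR, CANX, DERL1, KDELR3, PDIA6, SEC23B, SEC31A, SEL1L, SPCS2 and SSR1). Of the 8 members called at confluence that have several such probe sets, 6 had 1 sign throughout: CREB3L1, KDELR3, PDIA4, SEC23A, SEC31A and SEL1L. SDF2L1, SEC61A1, EIF2AK3, CREB3L2, MANF, SSR2 and SSR3 were read by a single probe set, and SEC24D had only 1 above the filter. DERL1 is an example for p73 shRNA: its brightest probe set averaged 0.05, and a second one, at 1120, 562, 952 and 810, averaged -0.61. That second probe set passed when each probe set was tested as its own feature (limma adjusted p 0.0241).

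**Figure D4:**
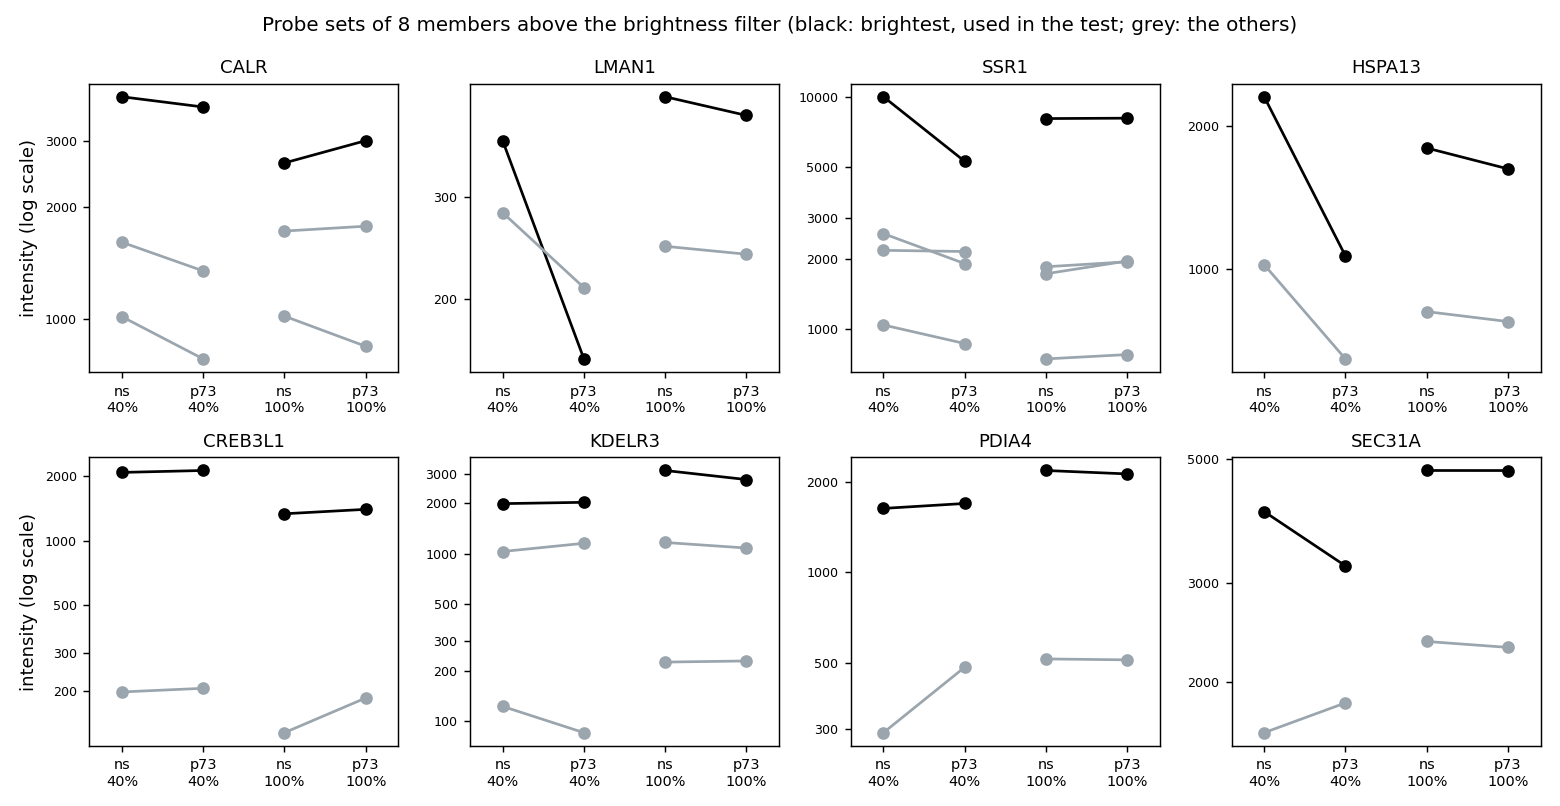
Intensity on the 4 arrays (log scale) of the probe sets above the brightness filter for 8 members, with lines joining ns to p73 shRNA within a stage. The brightest probe set, used in the test, is black. CREB3L1, KDELR3, PDIA4 and SEC31A keep 1 direction with confluence by their averages, while the grey probe sets of CALR and LMAN1 do not follow the black one.

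A wider list of 118 further ER and early secretory genes also held genes called in either direction. Of 96 above the filter, 14 rose at confluence (14.6%) and 11 fell (11.5%), beside the 20.4% and 16.1% of all tested genes. The 4 lowest were SRPRB, a subunit of the receptor that docks ribosomes at the translocation channel (log2 -1.01 and -1.12, average -1.06, limma adjusted p 5.13e-10), GOSR2, a Golgi SNARE (average -1.02), PPP1R15A (GADD34), which reverses the PERK signal (average -1.01), and DDIT3 (CHOP), a stress-induced transcription factor (average -0.85). DDIT3 had intensities of 344 and 387 at 40% and 192 and 202 at 100%, and PPP1R15A 749 and 990 against 447 and 400. Both stress genes therefore read lower on both confluent arrays, where EIF2AK3 read higher with either hairpin. ATF4, the transcription factor translated after PERK signalling, fell by an average of -0.46, a call lost without the trend (limma adjusted p 0.0594).

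The 4 highest were WFS1, an ER membrane protein linked to calcium balance (average 0.87, limma adjusted p 0.000141), MOGS, the glucosidase that begins N-glycan trimming (average 0.80), UGGT2, a relative of the folding sensor UGGT1 (average 0.78), and NUCB1, a calcium-binding Golgi protein (average 0.67). MCFD2, the partner of LMAN1 in carrying glycoproteins, rose by an average of 0.58 (limma adjusted p 0.000576; 0.0204 without the trend). SEC62, a protein of the translocation channel, rose by 0.61 where SEC61A1 fell, so the translocation genes did not all go one way. Of the other measured COPII coat and exit-site genes of this list none was called: SEC24A and SEC16A averaged 0.30, TFG 0.17, SAR1A 0.01, SEC24B -0.04, SEC24C -0.08, SEC13 -0.19 and SAR1B -0.25 (limma). The calls among COPII members were therefore not shared by these genes, and BET1, a SNARE of the ER to Golgi step, rose by an average of 0.40, a call lost without the trend (limma adjusted p 0.0902), where GOSR2 fell.

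With p73 shRNA 1 of the 96 rose, NPLOC4, a cofactor in extracting proteins for degradation (1.24 and 0.29, average 0.77), and none fell. Its limma adjusted p was 0.0041, or 0.0995 without the trend. At an unadjusted p below 0.05 (limma) 5 of the 96 were higher and 7 lower, beside 410 and 512 of all 6759 tested genes. MCFD2, SEC62, ATF4, BET1, CRELD2 and the other COPII genes are named after their values were seen.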

How the data were processed

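Total RNA, isolated with trizol, carried a biotin label on Affymetrix arrays, per the labels' protocols. The deposited table gives 1 linear intensity per probe set and array; no source used here names the software behind it. From the values, each array has a mean of about 500.1 after trimming 2% at either end, so values were used as deposited. Such scaling hides a change shared by most genes.

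Of 22277 probe sets, 62 controls stayed out. In the array's annotation 19064 had 1 gene symbol, 1043 several and 2108 none; 19052 were updated by Entrez ID. Values were taken as log2(intensity + 11.6), with the pseudocount at the 20th percentile of all values. A gene took its brightest probe set by mean and was kept at or above the median of all probe sets. limma 3.58.1 in R 4.3.3 fitted confluence and hairpin on 4 arrays (1 residual degree of freedom, intensity trend, two-sided, Benjamini-Hochberg over 6759 genes). Under the trend limma estimated infinite prior degrees of freedom, so a gene's own spread did not enter its error. Single ratios have no test. The model was tested on simulated data; where the spread differed between genes, the share of false calls exceeded the threshold, so adjusted p-values may be too small.

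The members and lists were chosen with earlier results of these data known. Members passing a test are named; those passing without the trend, and the 3 largest per direction and comparison, have every array given. Of the further ER genes the 4 highest and 4 lowest called are named. Alternatives were quantile normalization, pseudocounts at the 5th and 40th percentile, no filter or one at the 70th, the mean of probe sets, probe sets as features, no trend, and no other factor. Promoters are RefSeq's, GRCh38.p14. Figures used matplotlib 3.10.9. The number of arrays limits precision.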

Additional observations from a re-analysis of the deposited data

Results flagged for a closer look

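In 3 members the ratios of the compared groups had opposite signs and differed by at least 1.5-fold; each ratio rests on 1 pair of arrays and the differences were not tested. HSPA13 responded to confluence by -0.36 with ns and 0.60 with p73 shRNA, a log2 difference of 0.96. SSR1 did so by -0.31 and 0.62, a difference of 0.93, which is by construction also the difference between its p73 shRNA ratios at 40% (-0.92) and 100% (0.01). SEC23B gave -0.60 and 0.16 for confluence, and -0.67 and 0.09 for p73 shRNA at 40% and 100%, a difference of 0.76 either way.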

How the results depend on the processing

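Both pseudocounts and the filter at the 70th percentile kept the counts of called members within 1.5 times. Members higher and lower at confluence numbered 9 and 7, and became 4 and 4 without the brightness filter, 5 and 3 without the trend, and 2 and 3 without the hairpin in the model; no member outside the 9 and 7 was added there. Called without the filter were SDF2L1, MANF, CREB3L1, SEC61A1, EIF2AK3, CREB3L2, SEC24D and KDELR3. SDF2L1, CREB3L1, SEC61A1 and KDELR3 were called under all 9 alternatives, and SEC24D under all but the mean of probe sets. The 2 members lower with p73 shRNA became 1 with probe sets as features, where only the brightest probe set of each gene was counted. A second DERL1 probe set also passed in that setting (average -0.61, limma adjusted p 0.0241). The 2 members became 0 under quantile normalization, no filter, the mean of probe sets, no trend or no confluence term. The number of members at an unadjusted p below 0.05 in these settings (limma) was 0 to 7, higher and lower counted together. With the mean of probe sets, members at least 1.5-fold higher with both hairpins went from 1 to 0 and lower from 2 to 1, the latter also with the pseudocount at the 40th percentile. Of the further ER genes, 14 higher and 11 lower at confluence became 7 and 5 without the filter and 5 and 6 without the hairpin, with 6 lower without the trend. The 1 higher with p73 shRNA became 0 without the filter, the trend or confluence and with the mean of probe sets; with the filter at the 70th percentile 1 was lower. Values that turned their sign were all uncalled in the comparison concerned. For confluence under quantile normalization these were CANX (0.11), PDIA3 (0.057), PDIA6 (0.028) and DERL1 (-0.0077), and with the mean of probe sets PDIA6 (0.044) and SSR1 (-0.16). For p73 shRNA they were CANX (-0.013) and PDIA6 (-0.032) under quantile normalization, EDEM1 (-0.00052) with the pseudocount at the 40th percentile, and with the mean of probe sets CALR (-0.12), DNAJB9 (-0.21), PDIA6 (-0.030), SEL1L (-0.29), DERL1 (-0.28) and ATF6 (-0.044). The cause of these changes was not tested. No paired analysis was possible because each group holds 1 array, beyond the additive model itself, which compares stages within a hairpin and hairpins within a stage; for the same reason no replicate could be left out.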
